A study of Homo sapiens with 30 samples.

Results

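ERG is an ETS transcription factor that prostate epithelium normally lacks and that many prostate tumours express after the androgen-driven TMPRSS2 promoter is fused to its gene. ETS factors bind a GGAA core in DNA, often beside sites for AP-1, the FOS and JUN dimer that growth factor signalling switches on. Normal prostate glands hold a basal layer marked by keratins 5 and 14 and the factor TP63, and a luminal layer marked by keratins 8 and 18. RNA-seq of the line RWPE1-ERG was compared here with RWPE1-Vector to describe which genes were higher and which were lower when ERG was the only oncogene added.

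RWPE1 is an immortalized line of normal human prostate epithelial cells, grown in serum-free keratinocyte medium with EGF. The vector line carries the empty retroviral vectors pQCXIH and pBabe-puro, and the ERG line carries pQCXIH with ERG isoform 1 together with empty pBabe-puro. A further pair, RWPE1-mAKT and RWPE1-ERG+mAKT, carries myristoylated AKT, a constantly membrane-bound kinase, in pBabe-puro. All 4 lines were kept in puromycin and hygromycin, and each is a selected population. PolyA RNA was sequenced in 3 libraries of each line, but the expression table used here gives 1 value a gene and line, the FPKM (fragments scaled by transcript length and by the number of fragments) pooled over those 3 libraries. No difference in levels below therefore has a replicate check or a test, and the depth behind a value is unknown. A gene was called higher or lower at a ratio of 2 or more with no pseudocount, among genes that reached 1 FPKM in either line, which kept 12375 of 26255 genes.

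ERG itself, on chromosome 21 (39751949 to 40033704, minus strand, hg19), stood at an FPKM of 0.264 in vector cells and 358 in ERG cells, and at 0.435 and 328 in the pair with mAKT, so the ERG labels hold; the mAKT labels were not checked. Basal markers were abundant in the vector line: the FPKM was 3126 for KRT5, 2936 for KRT14 and 36.3 for TP63. KRT8 and KRT18 were also present, at 622 and 817, while the secretory gene KLK3 was listed at 0 in both lines. Few markers of other cell types were expressed in vector and ERG cells. An FPKM of at least 1 was reached by 4 of 29 endothelial, 2 of 14 fibroblast, 1 of 15 immune and 2 of 13 neuroendocrine genes, with PTPRC at 0 and 0.00391 and PECAM1 at 0.0158 and 0.0148. The highest immune marker was CD68 (28.3 and 28.9) and the highest neural marker TUBB3 (24.2 and 32.0). The summed FPKM of the expressed endothelial genes was 69.4 in vector and 127 in ERG cells, led by THBD (31.9 and 82.9), which epithelial cells also make.

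With ERG, 639 genes were at least 2-fold higher (5.16% of 12375) and 247 were at least 2-fold lower (2.00%). Small RNA genes (small nucleolar RNAs, microRNA hairpins and the like), whose FPKM is inflated by their short length, supplied 217 of the higher and 63 of the lower genes. Without them 422 genes were higher (3.52% of 11989) and 184 were lower (1.53%), and the median log2 ratio was −0.02. At a 4-fold limit 72 and 25 of these genes remained. Small RNA genes took 26.4% of all FPKM in vector cells and 43.4% in ERG cells, with a median log2 ratio of 1.16. RNY5, SNORD74, SNORD78, SNORD116-14 and SNORD105 were listed at 0 in vector cells and at 317, 259, 121, 103 and 98.4 in ERG cells. Rescaling each line to the same total FPKM lowers every ratio by 0.56 on the log2 scale, and the counts over all genes then become 320 higher and 1115 lower, so that 22.3% of the calls are higher in place of 72.1%. Rescaling over genes other than small RNA genes lowers ratios by 0.18 and gives 508 higher and 339 lower, or 60.0% higher. The deposited values are used below, with the median gene near 0.

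**Figure D1:**
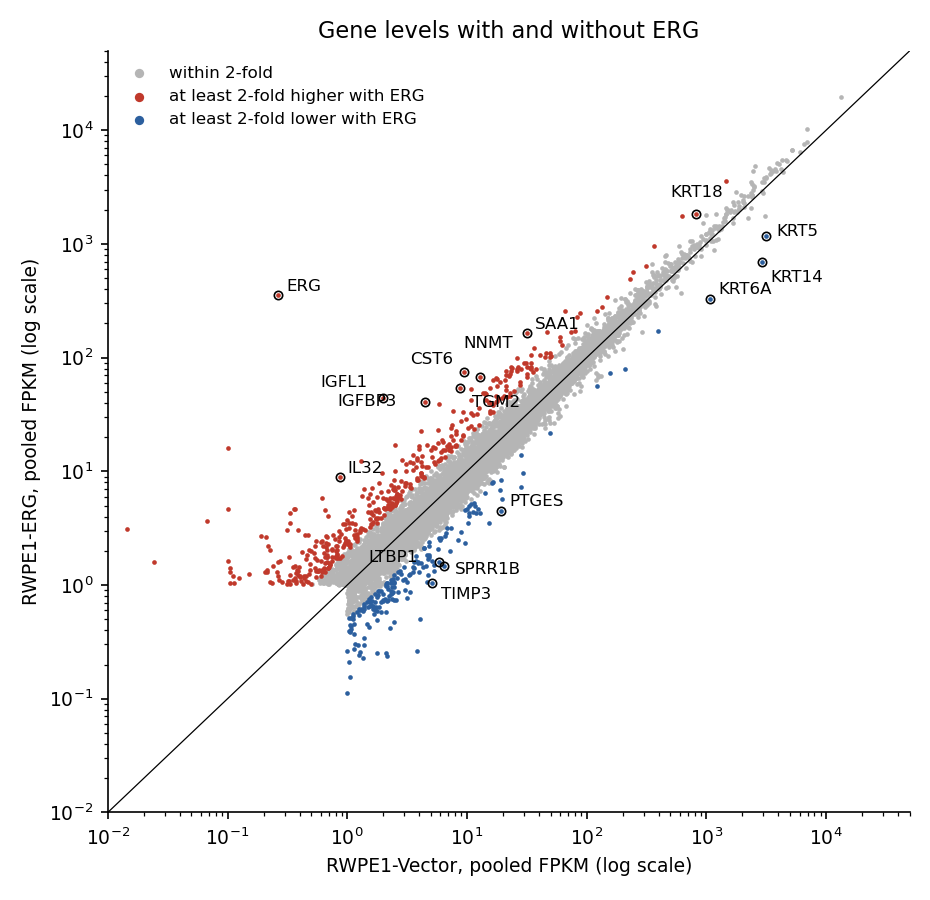
FPKM pooled over 3 libraries in RWPE1-Vector (x axis) and RWPE1-ERG (y axis), both on log scales, for 11987 genes other than small RNA genes; the line marks equal levels, and red and blue points are at least 2-fold higher or lower with ERG. ERG (0.264 and 358) stands farthest above the line, and KRT5, KRT14 and KRT6A are the abundant genes well below it.

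Genes of low level moved most. Among the 3283 genes whose higher FPKM was 1 to 5, 95% of log2 ratios lay between −1.24 and 1.63, and 6.00% were called higher and 4.08% lower. Among the 974 genes at 100 or more the same range was −0.42 to 1.06, with 29 genes higher and 7 lower. GALNT6 (2.52 and 5.06) lay just inside the limit and ENO2 (3.50 and 6.99) just outside it. On the lower side, TMEM209 (16.5 and 8.10) lay just inside and SFRP1 (53.5 and 26.9) just outside.

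After ERG itself, the largest ratio among genes that reached 5 FPKM in the higher line and 0.5 in the lower was that of IGFL1, a small secreted protein of the IGF-like family, encoded on chromosome 19 (46732999 to 46734500, plus strand). Its FPKM was 1.97 in vector and 44.5 in ERG cells, 22.5-fold higher. IL32, a cytokine gene on chromosome 16 (3115298 to 3132193), went from 0.862 to 8.92, 10.3-fold higher. IGFBP3, which binds IGFs outside the cell, stood at 4.44 and 41.1, and the protease inhibitor gene CST6 at 9.51 and 74.3. TGM2, the tissue transglutaminase that crosslinks proteins, stood at 8.73 and 53.5. NNMT, which methylates nicotinamide, stood at 12.7 and 67.1, and the acute-phase gene SAA1 at 31.5 and 165. SAA1 and SAA2 are near-identical, so their reads may be divided between them. These genes were all above 5-fold. MARCHF4, a ubiquitin ligase gene (1.29 and 12.4), LAMP3 (0.618 and 5.80), TRIML2 (2.51 and 17.2), the keratin-associated gene KRTAP2-3 (5.89 and 39.1), PLCB4 (4.15 and 22.8) and the metalloprotease ADAM19 (1.38 and 6.99) were also among the 20 largest ratios.

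Within the same FPKM limits, the largest decrease was at TIMP3, an inhibitor of metalloproteases on chromosome 22 (33197691 to 33259028), which lies inside the SYN3 gene. Its FPKM was 5.14 in vector and 1.05 in ERG cells, 4.91-fold lower. The cornified envelope gene SPRR1B stood at 6.47 and 1.48, the steroid-metabolizing AKR1C1 at 15.4 and 3.54, and the prostaglandin E synthase PTGES at 19.4 and 4.51. The carbonic anhydrase CA12 (9.68 and 2.33) and the ephrin receptor EPHA7 (5.27 and 1.33) were about as much lower. LTBP1, which stores latent TGF-beta in matrix (5.84 and 1.58), the matrix proteoglycan VCAN (7.17 and 2.01) and the protease HTRA1 (29.4 and 9.74) followed. Most of the 20 largest decreases came from genes with an FPKM under 30 in vector cells. The exceptions were KRT14 and KRT6A, which are among the most abundant messages of this line.

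Among the abundant keratins, KRT14 was 4.20-fold lower (2936 to 699.5), KRT5 2.67-fold lower (3126 to 1169.8) and the stress keratin KRT6A 3.25-fold lower (1075 to 331). KRT8 was 2.84-fold higher (622 to 1769), KRT18 2.26-fold higher (817 to 1843) and KRT19 2.61-fold higher (367 to 956), and KRT7 went from 2463 to 4356, within 2-fold. On the FPKM scale KRT5 stood above KRT8 in vector cells and below it in ERG cells. Keratin genes of one family share sequence and have pseudogene copies, so a part of their reads may be assigned to the wrong member.

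Of 24 basal genes, all above the floor, 4 were called lower and 1 higher, with a median log2 ratio of −0.33. Over all 11989 genes other than small RNA genes, 3.52% were called higher and 1.53% lower. The lower genes were KRT14, KRT5, the hemidesmosome collagen COL17A1 (210 to 79.4) and TRIM29 (122 to 56.8), and the higher one was KRT15 (33.3 to 80.3), a basal keratin. TP63, the basal master factor, stood at 36.3 and 21.3, and the hemidesmosome integrin ITGB4 at 379 and 283, both within 2-fold. Of 16 expressed luminal genes (of 31 in the list), 5 were called higher and 0 lower, with a median of 0.58. They were KRT8, KRT18, KRT19, the transcription factor GATA3 (1.52 to 5.10) and the surface antigen PSCA (2.50 to 5.68). FOXA1, the pioneer factor of luminal cells, stood at 3.24 and 4.66, and the androgen-regulated gene FKBP5 (131 and 69.3) was not higher. With each line rescaled to the same total the luminal median becomes 0.02 with 1 gene called higher, and the basal median becomes −0.89 with 9 called lower. Over all 12375 genes that rescaling gives a median of −0.57, with 320 called higher and 1115 lower.

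**Figure D2:**
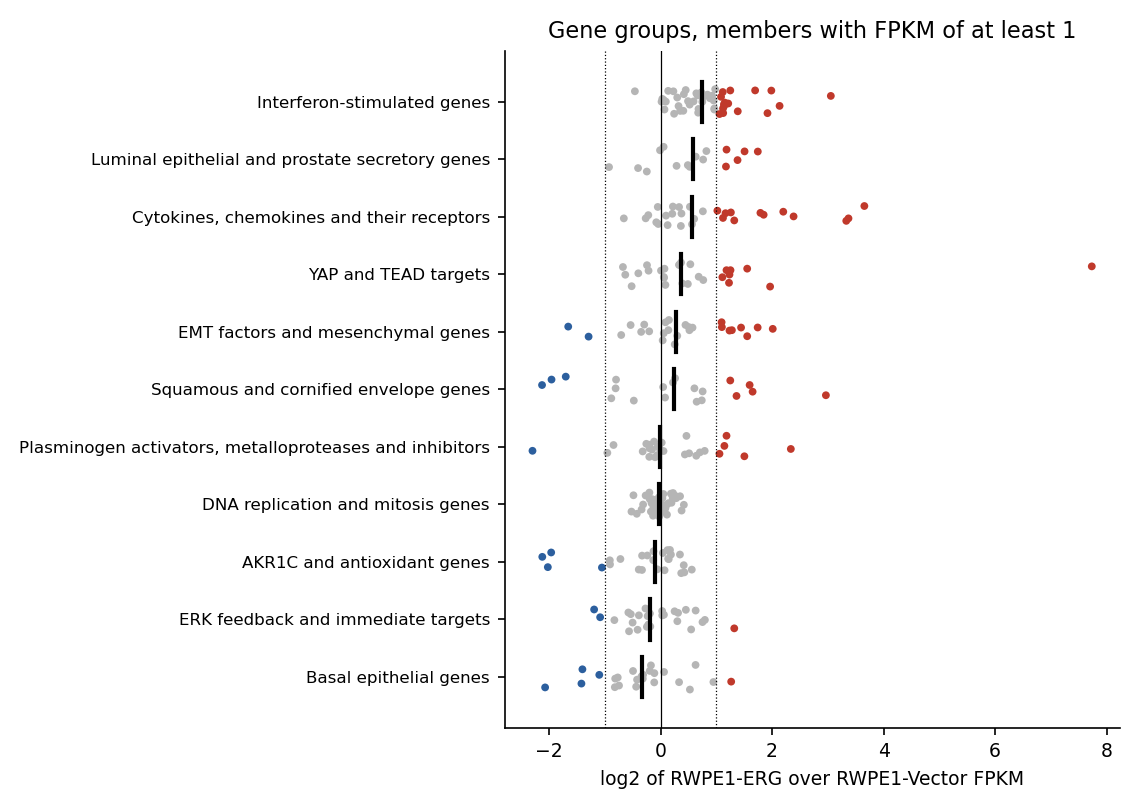
Log2 ratio of RWPE1-ERG over RWPE1-Vector FPKM (x axis) for the members of 11 gene groups that reached 1 FPKM; each point is a gene, red and blue points pass 2-fold (dotted lines), and black bars are group medians. Interferon-stimulated genes (median 0.75), luminal genes (0.58) and cytokines (0.56) lie to the right, and basal genes (−0.33) to the left.

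Interferon-stimulated genes, the antiviral and antigen-presentation genes that interferons switch on, were the list farthest above 0. Of 48 expressed members 16 were called higher and 0 lower, and 47 of 48 had a ratio above 1, with a median log2 ratio of 0.75. Among all genes other than small RNA genes, 3.52% were called higher and 1.53% lower. CMPK2 (0.150 to 1.25), the antiviral RSAD2 (0.237 to 1.04), IFI27 (3.96 to 15.7), EPSTI1 (0.990 to 3.74) and MX1 (2.34 to 7.57) had the largest ratios. The abundant members IFITM3 (350.0 to 664), ISG15 (48.0 to 93.0) and HLA-B (49.6 to 109) had ratios of 1.90, 1.94 and 2.21, of which HLA-B alone passed 2-fold. STAT2 (4.72 and 5.54), a factor that acts on these genes, was within 2-fold. The cytokine list, 29 of 56 expressed, had 12 members called higher and 0 lower, with a median of 0.56. Beside IL32, SAA1 and SAA2 these included IL1B (46.6 to 168), the highest of the list, IL1A (22.9 to 46.4), IL24 (0.220 to 2.21), CSF2 (0.262 to 1.21), CSF1 (1.65 to 3.58) and LIF (0.968 to 2.42). CXCL8 (0.743 and 1.13), CXCL2 and CXCL3 stayed within 2-fold. After rescaling to the same total, 5 interferon-stimulated genes and 7 cytokine genes were still called higher, with medians of 0.19 and 0.01. Over all 12375 genes 320 were called higher there, with a median of −0.57.

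Genes that the YAP and TEAD complex is known to control had 8 members called higher and 0 lower of 27 expressed, with a median of 0.37. These were CYR61 (65.4 to 255), CTGF (10.2 to 24.1), the receptor kinase AXL (34.5 to 82.4), tissue factor F3 (242 to 567), GADD45B (19.6 to 44.4), DLC1, VGLL1 and ANKRD1, which went from 0.0146 to 3.10. YAP1 (39.4 and 33.3) and TEAD1 (19.4 and 16.7) were not higher. Of 26 expressed mesenchymal genes 8 were called higher and 2 lower, with a median of 0.28. Fibronectin FN1 (83.7 to 228), thrombospondin THBS1 (229 to 491), SPARC (31.6 to 67.5), L1CAM, LOXL1, LOXL2, COL5A1 and N-cadherin CDH2 (3.04 to 7.38) were higher, while COL5A2 (2.35 to 0.747) and CDH11 (3.51 to 1.44) were lower. Vimentin VIM went from 737 to 1056 and stayed within 2-fold, as did the EMT factors SNAI2 (68.5 and 55.9) and TWIST1 (5.66 and 5.89). Both medians turn negative, at −0.19 and −0.28, when each line is rescaled to the same total, where the median of all genes is −0.57. Junction genes had 2 members called higher of 39 expressed, CLDN1 (5.11 to 13.3) and CGN, and 0 lower. The shares over all genes other than small RNA genes were 3.52% higher and 1.53% lower, and the junction count lies near them.

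Among proteases and their inhibitors, 5 of 27 expressed genes were called higher and TIMP3 lower, with a median of −0.01. For this and the next lists, the shares over all genes other than small RNA genes were 3.52% higher and 1.53% lower. The higher genes included ADAM19, MMP17 (0.856 to 2.43), TIMP2 (20.3 to 46.0) and ADAM8 (3.80 to 8.41). The plasminogen activator PLAU, a gene known to be bound by ERG, stood at 23.6 and 32.6, and PLAT at 6.89 and 11.2. Of 20 expressed squamous genes (of 56), 5 were called higher and 3 lower: CST6, KRT80, KRT13, SPRR2D and ELF3 against SPRR1B, KRT16 and KRT6A. The IGF list (14 of 22 expressed) had IGFL1, IGFBP3 and IGFBP7 higher and IRS1, the docking protein of the IGF receptor (9.65 to 4.56), lower. The AKR1C and antioxidant list had 0 higher and 4 lower of 26, AKR1C1, AKR1C2, ALDH3A1 and the cystine transporter SLC7A11. AKR1C1 and AKR1C2 are near-identical genes, so their reads may be shared. NQO1 (58.8 and 56.5) and HMOX1 (1.22 and 1.79) stayed within 2-fold.

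Targets and feedback inhibitors of ERK signalling had 1 member called higher (LIF) and 2 lower (FOSB and EREG) of 28 expressed, with a median of −0.19. The ERK phosphatase DUSP6 stood at 86.2 and 59.6, and the AP-1 gene FOSL1 at 119 and 200.3. Of 19 expressed ETS genes 2 were called, ERG itself and ELF3 (2.26 to 5.81), and ETS1 stood at 21.0 and 25.0. Among TGF-beta genes LTBP1 and BMP2 (10.4 to 4.28) were lower and 0 of 27 higher. Of Notch genes DLL1 was higher, and LFNG and NOTCH3 were lower, of 18. In the PI3K pathway list (25 genes) SGK1 (15.7 to 32.7) and ERG itself were higher, and the regulatory subunit PIK3R1 (10.02 to 4.67) and IRS1 were lower. Cyclin D2 (CCND2, 26.3 to 99.3) was higher and CDKN1C lower of 27 G1 and p53 genes. ERBB ligands had EREG lower of 12, the S100 family S100A8 lower of 14, the kallikrein and serpin list KLK6 and SERPINB9 higher and SERPINB13 lower of 13, the ATF4 list GDF15 higher and SLC7A11 lower of 32, and the glycolysis list CA12 lower of 36. The shares over all genes were 3.52% higher and 1.53% lower, and some of these counts lie near them. After rescaling to the same total, the ERK list had 0 higher and 7 lower, the TGF-beta list 0 and 8 and the ATF4 list 0 and 9. The PI3K list had 1 and 5 there, and its higher gene was ERG itself. Over all 12375 genes the same rescaling took the lower calls from 247 to 1115 and the higher calls from 639 to 320. As deposited, no gene was called among 49 replication and mitosis genes, 19 integrins and laminins, 34 lipid synthesis genes, 24 HOX genes, 14 PRC2 and H3K27 demethylase genes or 51 ribosomal protein genes, where 0 were higher and 0 lower.

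The clustered histone genes, a group chosen after their values were seen, also stood higher. Of 58 expressed HIST genes 51 were called higher with ERG and 0 lower, with a median log2 ratio of 1.49, and their summed FPKM was 1333 in vector and 3558 in ERG cells. Most of these messages normally end without a polyA tail, and like small RNA genes they enter a polyA library poorly. Without small RNA and histone genes the counts were 371 higher (3.11% of 11931) and 184 lower (1.54%). The part of polyA selection in these values was not tested.

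The pair of lines with mAKT holds the same comparison in separate libraries. There 221 genes were at least 2-fold higher with ERG (1.85% of 11934) and 103 lower (0.863%), small RNA genes left out. Of the 422 genes higher over vector, 335 had a ratio in this pair. Of those, 280 were again above 0 (83.6%, 95% Wilson interval 79.2 to 87.2%) and 94 were again at least 2-fold higher (28.1%, 23.5 to 33.1%), with a median log2 ratio of 0.63. Of the 157 lower genes with a ratio, 102 were again below 0 (65.0%, 57.2 to 72.0%) and 36 were at least 2-fold lower (22.9%, 17.05 to 30.1%). Ratios in this pair lean below 0: 33.9% of all 11717 genes with both ratios were above 0, so the share of lower genes that were again below 0 was near that of all genes. Over all of these genes the log2 ratios of both pairs had a Pearson r of 0.44 and a Spearman rho of 0.17, a description over points that share each line's libraries. The intervals cover counting of genes only.

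**Figure D3:**
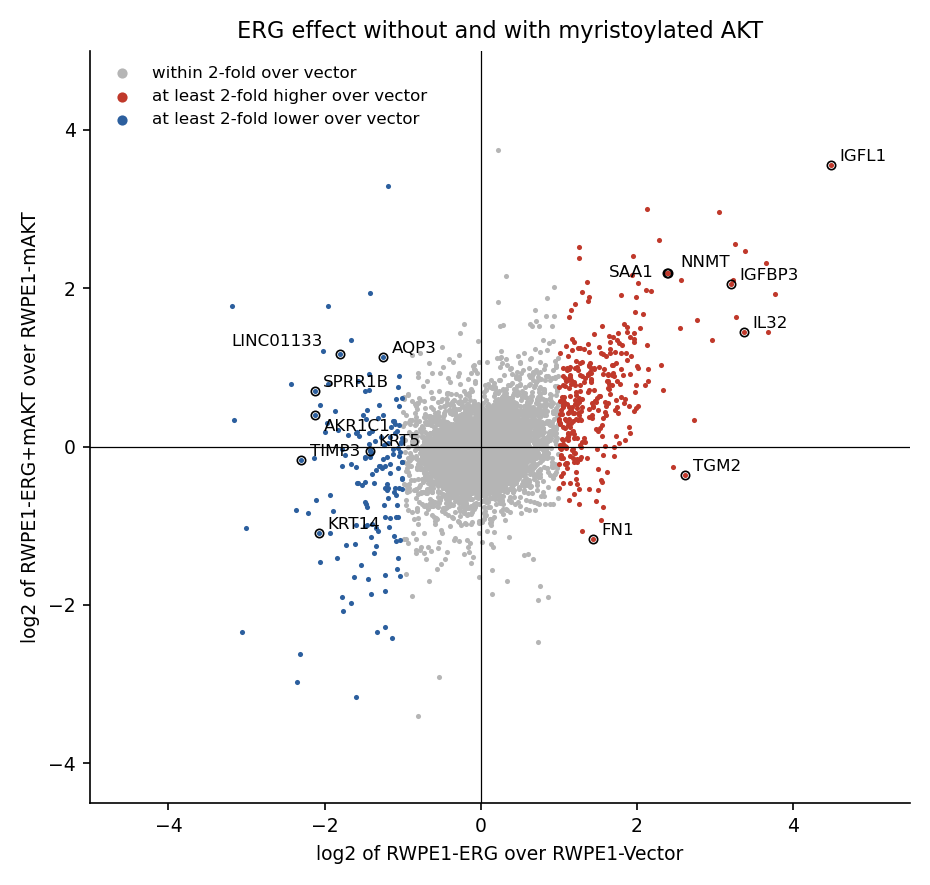
Log2 ratio of RWPE1-ERG over RWPE1-Vector (x axis) and of RWPE1-ERG+mAKT over RWPE1-mAKT (y axis) for 11717 genes other than small RNA genes, of which 3 lie beyond the axes; colours give the call over vector. Red points lie mostly above 0 on the y axis (280 of 335), and blue points spread on both sides (102 of 157 below 0).

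Genes at least 2-fold higher in both pairs, counted where the higher line of each pair reached 5 FPKM and the lower 0.5, numbered 47 of 8447 within those limits, and 7 were lower in both. Of these 54 genes, 18 were histone genes. IGFL1 stood at 4.27 in mAKT and 50.4 in ERG+mAKT cells, SAA1 at 33.8 and 154, NNMT at 7.31 and 33.3, IGFBP3 at 3.31 and 13.7 and CST6 at 7.27 and 18.5. Interferon-stimulated genes had a median of 0.54 there, with 12 of 51 called higher, and cytokines one of 0.28. KRT14 (2527 to 1185), COL17A1 (169.8 to 76.8), the transcription factor ZBED2 (19.5 to 5.67 over vector, 11.5 to 3.07 here), STAMBPL1, TRABD2A, RAMP1 and SLCO4A1 were the 7 genes lower in both.

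Several of the largest differences over vector were absent or opposite with mAKT. TGM2 stood at 5.36 in mAKT and 4.18 in ERG+mAKT cells, TIMP3 at 8.65 and 7.67, KRT5 at 3642 and 3519, KRT18 at 987 and 958 and KRT6A at 946 and 1049.8. IL1B stood at 42.0 and 44.6. The AKR1C1 values were 13.9 and 18.4, and those of SPRR1B 45.9 and 74.8. Within the same FPKM limits in both pairs, the 5 largest differences toward a higher ratio over vector were those of the histone variant gene H3F3A (20.5 to 34.3 over vector, 105 to 18.9 with mAKT), TGM2, the decoy receptor TNFRSF6B (61.5 to 112, 72.6 to 19.5), FN1 and the peptidase ANPEP (4.10 to 12.1, 6.00 to 3.55). Toward a higher ratio with mAKT they were S100A9, a calprotectin subunit (33.0 to 38.4, 51.6 to 691), LINC01133, SPRR1B, KRT16 and CA12. S100A8, whose vector and ERG levels lie under those limits, stood at 3.64 and 1.60 over vector and at 13.9 and 137 with mAKT. The YAP list had a median of −0.12 with mAKT against 0.37 over vector, the mesenchymal list −0.12 against 0.28 and the luminal list −0.01 against 0.58. The basal list had −0.32 in this pair and −0.33 over vector. The median gene was at −0.09 here, and the difference between pairs was not tested, since each line has 1 value.

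**Figure D4:**
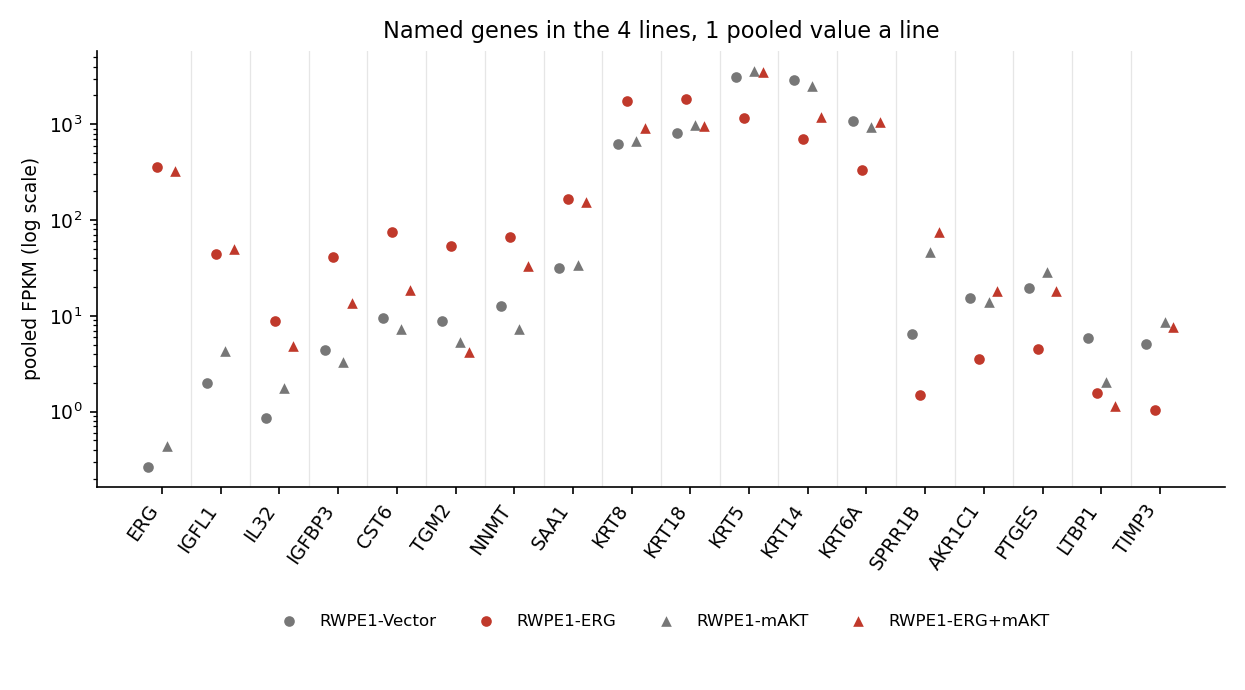
FPKM pooled over 3 libraries (log scale) for 18 named genes in RWPE1-Vector and RWPE1-ERG (circles) and RWPE1-mAKT and RWPE1-ERG+mAKT (triangles), red with ERG and grey without. IGFL1, IGFBP3, NNMT and SAA1 are higher with ERG in both pairs, and TGM2, KRT18, KRT5 and TIMP3 separate in the circles but lie close together in the triangles.

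Chromatin lists of the same lines, 1 library each, were set beside the calls at 10912 genes with an annotated start (GENCODE on GRCh37), 325 of them higher and 176 lower. These genes differ in level: the median FPKM in the higher line was 4.79 for higher, 2.58 for lower and 12.4 for other genes. An ERG peak of RWPE1-ERG+mAKT cells, the ERG map used here, lay within 20 kb of the start of 80 higher genes (24.6%, 95% Wilson interval 20.2 to 29.6%), 24 lower genes (13.6%, 9.34 to 19.5%) and 1794 genes within 2-fold (17.2%, 16.5 to 18.0%). The share at higher genes was 1.43 times that at genes within 2-fold, 2.02 times within 5 kb, and 1.61 times among genes with an FPKM of 1 to 10. This list holds 9113 peaks, of which 450 have a q-value of at most 0.01, so many are weak calls. The study reports that with mAKT ERG kept the sites it binds alone and gained others. A peak of this list may therefore be absent in cells with ERG alone.

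Peaks of 5 genes, picked after their values were seen, are shown as 151 bases of the hg19 reference on the gene's strand. Each window surrounds the summit of the strongest ERG peak of ERG+mAKT cells within 20 kb of the gene. Over vector, IGFL1, TGM2, IL24 and EPSTI1 were higher with ERG and KRT5 was lower. In the mAKT pair, where the peaks were mapped, TGM2 (5.36 to 4.18) and KRT5 (3642 to 3519) stayed within 2-fold. There IGFL1 (4.27 to 50.4), IL24 (0.0996 to 6.97) and EPSTI1 (1.10 to 2.86) were higher. Whether these peaks occur with ERG alone was not tested. All windows lie outside annotated genes upstream of the start. The IGFL1 window, chr19:46729924-46730074, is centred 3000 bases upstream of the start. The TGM2 window, chr20:36796548-36796698, lies 1643 bases upstream. The IL24 window, chr1:207070281-207070431, lies 432 bases upstream, the EPSTI1 window, chr13:43570712-43570862, lies 4380 upstream and the KRT5 window, chr12:52916475-52916625, lies 2236 upstream. Fold enrichment over input was 4.24, 5.66, 5.74, 4.11 and 3.53 in that order, and the q-value was at most 0.01 for TGM2 and IL24. An ERK2 peak of ERG cells overlaps the ERG peak at IGFL1 (fold enrichment 3.31) and that at KRT5 (4.47), but not those at TGM2, IL24 and EPSTI1. GGAA on either strand and TGANTCA, the AP-1 letters, are in capitals.
IGFL1: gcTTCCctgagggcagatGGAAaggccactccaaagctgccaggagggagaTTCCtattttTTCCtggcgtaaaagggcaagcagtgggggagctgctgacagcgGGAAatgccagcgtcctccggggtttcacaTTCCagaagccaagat
TGM2: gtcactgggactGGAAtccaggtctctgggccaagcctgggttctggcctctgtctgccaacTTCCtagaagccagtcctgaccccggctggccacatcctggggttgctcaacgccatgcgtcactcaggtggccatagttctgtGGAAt
IL24: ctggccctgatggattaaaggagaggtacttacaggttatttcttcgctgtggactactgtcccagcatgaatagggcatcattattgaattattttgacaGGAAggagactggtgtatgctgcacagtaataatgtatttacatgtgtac
EPSTI1: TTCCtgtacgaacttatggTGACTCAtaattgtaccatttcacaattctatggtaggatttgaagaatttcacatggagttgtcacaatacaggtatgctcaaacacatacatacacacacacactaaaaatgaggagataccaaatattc
KRT5: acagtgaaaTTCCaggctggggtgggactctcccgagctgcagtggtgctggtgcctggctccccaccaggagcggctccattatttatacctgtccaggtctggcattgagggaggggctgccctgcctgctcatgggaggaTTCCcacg
GGAA stood in 6 places at IGFL1, 3 at TGM2, 1 at IL24, 1 at EPSTI1 and 2 at KRT5, but this short core was in 80.3% of all 9113 windows of that length, so its presence tells little. TGANTCA was in the EPSTI1 window and in 10.2% of all windows, and in 21.8% of the 450 windows of a q-value at most 0.01. The ERG peaks at IGFL1, TGM2, EPSTI1 and KRT5 overlap an ATAC peak of RWPE1-ERG cells, and the ERG peak at IL24 does not.

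In promoters from 250 bases before to 50 after the start, the full ETS letters CCGGAAGT were found on either strand at 2 of 325 higher genes (0.615%, 0.169 to 2.22%) and 2 of 176 lower genes (1.14%, 0.312 to 4.05%), against 8.07% of genes within 2-fold and 4.44% of all 21886 promoters. GGAAGTGA, whose first letters overlap the last of CCGGAAGT, was in 1.54% of higher, 1.70% of lower and 4.87% of other genes (3.62% of all promoters). TGANTCA was in 8.00% of higher genes (5.52 to 11.5%), 7.39% of lower genes (4.37 to 12.2%) and 4.99% of genes within 2-fold, and in 7.03% of all promoters. Among genes with an FPKM of 1 to 10 these 3 shares were 6.82%, 6.90% and 5.12%. Those of GGAAGTGA were 2.27%, 2.07% and 3.89%, and those of CCGGAAGT 0.909%, 1.38% and 6.93%. There the ratio of higher genes to genes within 2-fold was 1.33 (0.804 to 2.20) for TGANTCA and 0.585 (0.243 to 1.41) for GGAAGTGA. A match says only that these letters are present.

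H3K27me3 is the repressive mark that the Polycomb complex PRC2 writes. Its regions were counted where they overlapped the 1 kb to either side of a start by at least 1 base. In vector cells this held for 78 higher genes (24.0%, 19.7 to 28.9%), 62 lower genes (35.2%, 28.6 to 42.5%) and 9.94% of genes within 2-fold. In ERG cells the shares were 9.85% (7.06 to 13.6%), 25.6% (19.7 to 32.5%) and 3.77%. The ERG list is shorter throughout, with 228233 regions over 138 Mb against 492265 over 242 Mb, so the drop in every class cannot be told apart from the size of the lists. Against genes within 2-fold, lower genes carried the mark 3.54 times as often in vector and 6.77 times as often in ERG cells, and higher genes 2.41 and 2.61 times as often. With the same number of regions taken from both lists, lower genes stood at 22.7% in vector and 25.6% in ERG cells, and higher genes at 11.4% and 9.85%. Among genes with an FPKM of 1 to 10 the ratios for lower genes were 3.02 and 5.07. Within 0.2 kb of the start far fewer genes had a region. There the shares of higher, lower and other genes were 7.69%, 9.09% and 2.11% in vector cells. In ERG cells they were 3.69%, 11.4% and 1.13%. Only 29 and 39 regions pass a q-value of 0.01, so single regions are weak. Among 38 named genes called lower, 4 had a region at the start in both lists (LTBP1, VCAN, EPHA7 and NPTX2), 5 in the vector list only (such as KRT16 and HTRA1) and 1 in the ERG list only. Among 59 named genes called higher, 2 were in both lists, 11 in the vector list only (such as IGFBP3, NNMT and FN1) and 1 in the ERG list only. Over all 10912 genes, 10.8% had a region in the vector list and 4.31% in the ERG list. A region in the vector list only therefore cannot be told apart from the greater length of that list.

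ERK2, the kinase downstream of Ras, had a peak within 20 kb of the start of 26.8% of higher genes (22.2 to 31.8%), 12.5% of lower genes (8.40 to 18.2%) and 23.1% of genes within 2-fold in ERG cells. Among genes with an FPKM of 1 to 10 these shares were 21.4%, 12.4% and 16.2%, and the ratio of lower genes to genes within 2-fold was 0.768 (0.496 to 1.19). In vector cells, whose list holds 41276 peaks against 5721, the shares were 56.6%, 46.0% and 59.7%. With 5721 peaks taken from each list, vector cells gave 16.9% of higher and 9.09% of lower genes. Of the 59 named higher genes, 16 had an ERK2 peak in both lists, 21 in the vector list only and 4 in the ERG list only, and of the 38 named lower genes these counts were 7, 14 and 1. IGFL1 had 3 peaks in the vector list and 2 in the ERG list, KRT5 had 11 and 5, and KRT14 had 4 and 0. An ATAC peak of RWPE1-ERG cells, a site of open chromatin, lay at the start of 67.4% of higher genes (62.1 to 72.3%), 71.0% of lower genes (63.9 to 77.2%) and 88.8% of genes within 2-fold, and the shares were 63.2%, 69.0% and 86.1% among genes with an FPKM of 1 to 10. No list labelled as ATAC of RWPE1-Vector was analysed here.

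**Figure D5:**
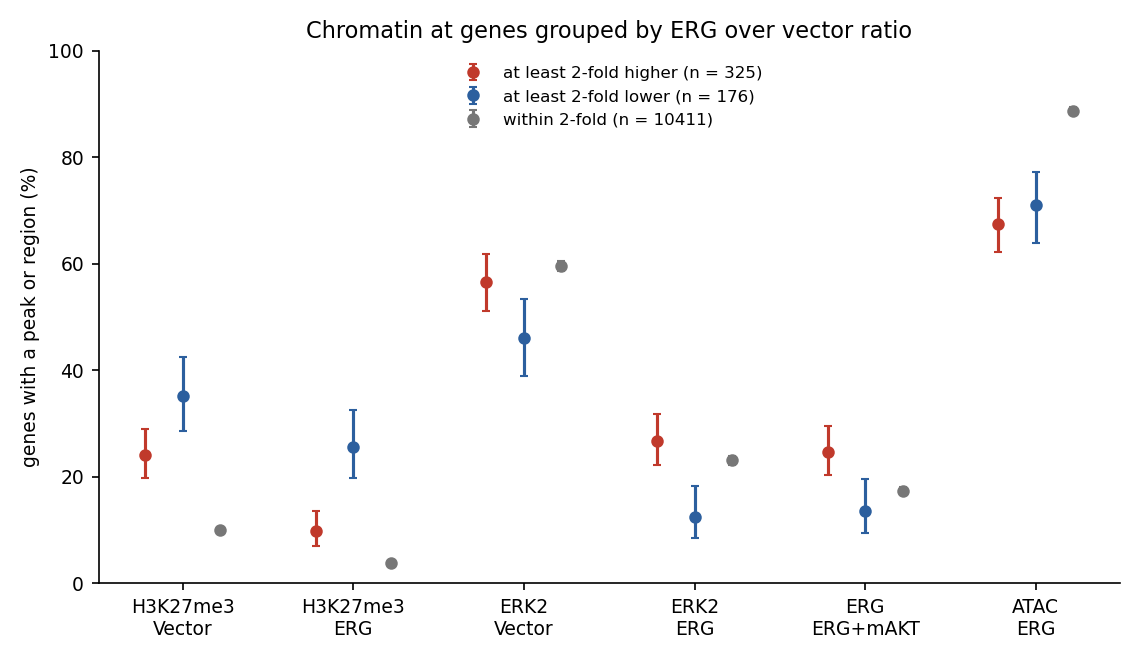
Share of genes (%) with an H3K27me3 region within 1 kb of the start, an ERK2 or ERG peak within 20 kb, or an ATAC peak within 1 kb, by line and by call over vector; points are shares and bars 95% Wilson intervals over genes. Genes lower with ERG have the largest H3K27me3 shares (35.2% and 25.6%), and genes higher with ERG the largest ERG peak share (24.6%).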

How the data were processed

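Per the labels and the methods of the study, the authors aligned reads with TopHat2 to hg19 and deposited a Cuffdiff table of FPKM values, pooled over 3 libraries of each line. How libraries were scaled and whether strand was used are not given in the sources used here. Its columns of fold changes, p-values and q-values from the authors' own comparisons were not used. The authors also deposited MACS2 peak lists with fold enrichment over input, signal and −log10 of p- and q-values. Log2 ratios without pseudocount were computed here for genes that reached 1 FPKM in either line. Levels were tested nowhere, since each line has 1 value. Replicates may be separate cultures or not, which the labels do not say. Genes named were the markers, the 20 largest ratios each way where the higher line reached 5 FPKM and the lower 0.5, up to 4 called members of each gene list each way with its most abundant gene, the 5 highest genes listed at 0 in 1 line, the 5 largest differences between pairs each way within the same limits and genes the study names; other members were picked after their values were seen. Values of some genes are not reported here. The members and lists were chosen with earlier results of these data known. Starts came from GENCODE on GRCh37, and shares carry 95% Wilson intervals, which cover counting only. Scripts ran in Python 3.11.15 with pandas 2.3.3, numpy 2.4.6, scipy 1.17.1, pysam 0.24.0 and matplotlib 3.10.9 and were tested on simulated data.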

Additional observations from a re-analysis of the deposited data

Results flagged for a closer look

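Among genes that reached 5 FPKM in the higher and 0.5 in the lower line of both pairs, values were at least 2-fold apart in opposite directions at 3 genes. LINC01133 had a log2 ratio of −1.80 over vector (5.26 to 1.51) and of 1.17 with mAKT (2.23 to 5.01). AQP3, a water and glycerol channel, had −1.25 over vector (11.8 to 4.97) and 1.13 with mAKT (28.5 to 62.3). FN1, which encodes fibronectin, had 1.44 over vector (83.7 to 228) and −1.16 with mAKT (53.4 to 23.8). The difference between the pairs was not tested, since each line has 1 pooled value.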

How the results depend on the processing

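No paired analysis was possible because only values pooled over the 3 libraries were used, and for the same reason no replicate could be left out. The 639 higher genes became 320 after rescaling to the same total, 422 without small RNA genes, 371 without small RNA and histone genes, 1191 at 1.5-fold and 167 at 4-fold. The 247 lower genes became 123 with a pseudocount of 1, 96 at a floor of 5, 1115 after rescaling, 637 at 1.5-fold and 79 at 4-fold. Over all genes, 83.7% of higher genes kept their direction with mAKT, against 91.9% after rescaling and 91.0% after rescaling over genes other than small RNA genes. For lower genes the 60.3% became 51.5% with the pseudocount, 52.6% at the floor of 5 and 44.8% with the latter rescaling. That rescaling moves the median log2 ratio of the mAKT pair from −0.08 to 0.14, and both rescalings change which genes are called. These shares therefore do not measure agreement between the pairs alone. As deposited, 33.9% of 11717 genes other than small RNA genes were above 0 in that pair. Against genes within 2-fold, the H3K27me3 ratio of lower genes was 6.27 in vector and 9.17 in ERG cells at 2-fold enrichment, 4.77 in vector cells with equal list sizes, 10.03 in ERG cells within 0.2 kb and 5.07 in ERG cells at an FPKM of 1 to 10, and that of higher genes was 3.64 in vector cells within 0.2 kb. The ERK2 ratio was 0.794 for higher genes within 5 kb and 0.522 for lower genes with equal lists, both in vector cells. At a q-value of at most 0.01 that of higher genes was 1.41 (0.700 to 2.83, 8 genes) in vector cells. In ERG cells it was 1.43 (0.638 to 3.23, 6 genes). For lower genes it was 0.975 (0.315 to 3.02, 3 genes) in vector cells and 0 (0 genes) in ERG cells at that q-value. The ERG peak ratio of higher genes was 2.02 within 5 kb and 2.49 (1.27 to 4.85, 9 genes) at that q-value. For lower genes it was 1.53 (0.491 to 4.77, 3 genes) at that q-value. Ratios at that q-value rest on few genes, and the ERK2 intervals and that of lower genes at ERG peaks hold 1 where any gene passed. With 33000 ATAC peaks the ratios were 0.457 and 0.542. The cause was not tested. The rescaling without small RNA genes, the removal of histone genes and the FPKM range of 1 to 10 were chosen after seeing the data. Of 135 named genes with a ratio, 16 turned from above to below 0 after rescaling to the same total. A gene called at 2-fold could not turn in this way, since that rescaling lowers every log2 ratio by 0.56. With it, 23 named genes lost their 2-fold call and 6 gained one.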
